A study of Mus musculus with 8 samples.

Results

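The genes that recognise bacterial lipopolysaccharide (LPS) and pass its signal from Toll-like receptor 4 (TLR4) to the first kinases and ubiquitin ligases of the cell were examined in BV-2 cells. They are 10 genes, Lbp, Cd14, Ly96, Tlr4, Myd88, Tirap, Ticam1, Ticam2, Irak2 and Traf6, taken by name. They were found through the transcript that each array probe was designed on, which gave 11 probes of the 55681 that were not controls. All 10 genes passed the filter on dim probes, among 22460 genes tested.

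BV-2 cells derive from mouse microglia, the resident macrophages of the brain, and were made immortal by retroviral infection. They are a single line, so no value below speaks of microglia in tissue. Cells in flasks were left untreated (control), given LPS at 1 µg/mL, given HF, a fraction extracted with hexane from the mushroom Amauroderma rugosum, at 100 µg/mL, or given both (LPS+HF), and RNA was taken after 24 h. Each of the 4 groups had 2 single-colour arrays, 8 in all, and precision is limited by their number. The study calls these arrays biological replicates but does not say whether they came from separate cultures, so p-values measure only the spread between these arrays. RNA came from whole flasks, so fewer cells carrying a transcript and less of it per cell cannot be told apart.

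LPS, a lipid from the envelope of Gram-negative bacteria, is handed to its receptor in steps. LPS-binding protein (Lbp), a secreted acute-phase protein made chiefly in the liver, lifts LPS from membranes and passes it to CD14, which loads it onto the complex of TLR4 and MD-2 (Ly96). The receptor then signals at the plasma membrane through the adaptors TIRAP and MyD88, IRAK kinases and the ubiquitin ligase TRAF6 toward NF-kB, and from endosomes through TRAM (Ticam2) and TRIF (Ticam1) toward interferon genes. Microglia are known for carrying this receptor complex, and several of its genes are themselves induced or silenced in macrophages exposed to LPS.

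Promoter sequences were read from RefSeq on GRCm38.p6, from 250 bases before to 50 bases after each transcript start, 300 bases in all. The tables held a printable entry for 5 of the 10 genes. The 4 shown belong to the arm from TIRAP and MyD88 through IRAK2 to TRAF6, because Traf6 and one Irak2 probe passed a test below and Myd88 and Tirap stand just above them in the pathway. Each is written 5′ to 3′ on the strand of the gene, with matches to the motifs searched in capitals.
Traf6, chr2:101678170-101678469, plus strand: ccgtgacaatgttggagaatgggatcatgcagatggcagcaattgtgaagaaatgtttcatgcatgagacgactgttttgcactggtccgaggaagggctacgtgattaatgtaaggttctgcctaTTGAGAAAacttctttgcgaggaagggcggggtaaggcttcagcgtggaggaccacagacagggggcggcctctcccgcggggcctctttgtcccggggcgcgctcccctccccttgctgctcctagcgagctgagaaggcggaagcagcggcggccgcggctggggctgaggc
Irak2, chr6:113638217-113638516, plus strand: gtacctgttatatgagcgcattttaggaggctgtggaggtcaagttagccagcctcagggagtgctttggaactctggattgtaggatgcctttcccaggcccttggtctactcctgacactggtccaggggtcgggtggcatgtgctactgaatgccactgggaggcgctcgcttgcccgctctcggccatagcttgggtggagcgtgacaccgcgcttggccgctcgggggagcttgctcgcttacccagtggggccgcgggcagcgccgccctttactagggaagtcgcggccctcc
Myd88, chr9:119339969-119340268, minus strand: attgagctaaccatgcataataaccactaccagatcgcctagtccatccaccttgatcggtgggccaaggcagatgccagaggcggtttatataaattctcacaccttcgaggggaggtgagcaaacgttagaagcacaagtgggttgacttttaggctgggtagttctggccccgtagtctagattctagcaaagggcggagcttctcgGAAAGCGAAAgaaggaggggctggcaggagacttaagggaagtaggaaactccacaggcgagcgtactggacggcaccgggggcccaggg
Tirap, chr9:35199916-35200215, minus strand: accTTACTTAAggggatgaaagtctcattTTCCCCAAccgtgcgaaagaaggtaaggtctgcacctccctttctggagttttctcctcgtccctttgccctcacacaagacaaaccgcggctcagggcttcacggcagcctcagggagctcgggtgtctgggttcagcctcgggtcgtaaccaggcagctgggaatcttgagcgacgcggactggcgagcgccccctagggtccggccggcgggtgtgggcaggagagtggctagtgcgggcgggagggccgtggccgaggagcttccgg

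The motifs searched on both strands were the NF-kB consensus, the core of the interferon-stimulated response element (GAAA on both sides of any 2 bases), AP-1 (TGANTCA) and C/EBP (TTNNGNAA). No 2 of the matches printed overlap. Myd88 held 1 interferon-response core, from base -40 to base -31 relative to its start, a match that 3.44% of 32851 promoters of this length hold. Traf6 held 1 C/EBP match, from base -124 to base -117, and the Tirap entry shown held 2, from base -247 to base -240 and from base -221 to base -214. C/EBP matches are common and stood in 40.7% of all promoters. The NF-kB consensus stood in 8.46% and AP-1 in 7.81% of all promoters, and neither set of letters was found in the windows of Traf6, Irak2, Myd88, Tirap or Ticam1. A match is a description of letters and was not tested as a site.

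All arrays shared 1 slide and 1 scan. Arrays without HF lay in slide row 1 and those with HF in row 2, and arrays without LPS lay in columns 1 and 2 and those with LPS in columns 3 and 4, so slide position and treatment cannot be told apart. The 75th percentile of signal lay between 247 and 286 without HF and between 346 and 527 with HF, and every array was scaled to it. Between 47.7% and 55.0% of probes were well above background. Control replicate 1 was uneven: its repeated probes had a coefficient of variation (CV) of 48.9%, against 8.06% on HF replicate 1 and 3.77% to 4.59% on the other 6 arrays. The scanner's quality report put both control replicate 1 and HF replicate 1 out of range. The SD over genes of the difference between replicates was 0.99 in control, 0.28 in LPS, 0.49 in HF and 0.34 in LPS+HF, in log2 units. A spatial correction, which subtracted local trends from each array and masked spots dimmed more than 4-fold, brought the control value to 0.42. Results that turn on these arrays are given with and without that correction. Of 12 microglial and macrophage markers, 10 were above background on all 8 arrays, Cx3cr1 on 6 and P2ry12 on 5.

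All levels below are log2 signals minus the array's 75th percentile, so that 0 is the brightness of that percentile. They are compared only between arrays and never between probes. Differences between group means were tested with limma over all 8 arrays, two-sided. The threshold for passing was an adjusted p (Benjamini-Hochberg, over all 22460 genes) under 0.05. A fit with 1 array left out leaves 1 array in its group. More of all genes passed without a control array, and fewer without an LPS, HF or LPS+HF array. A call gained or lost there is therefore not read as a trait of that gene. More of all genes also passed after spatial correction.

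**Figure D1:**
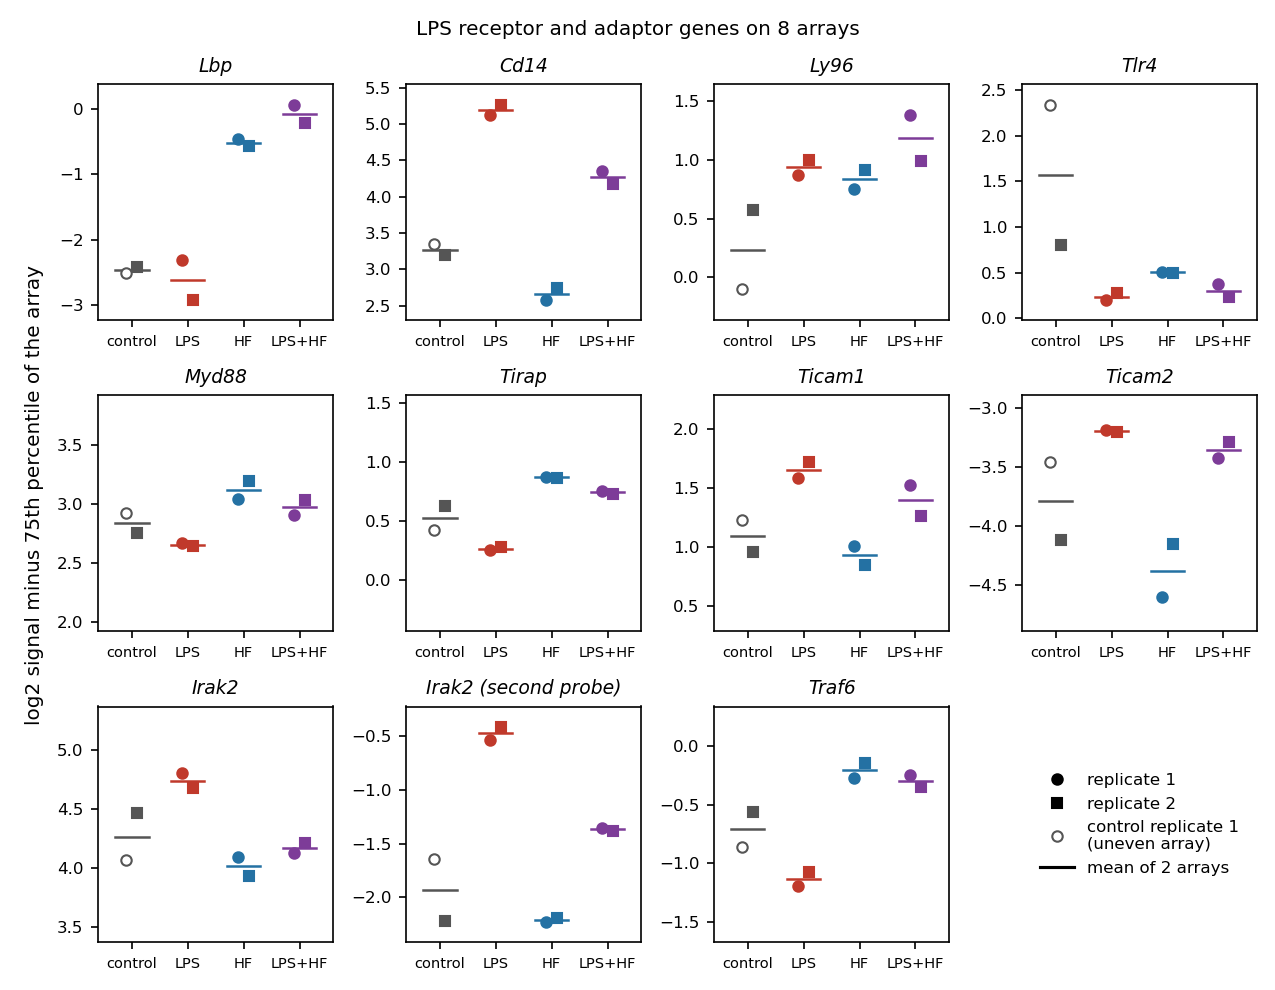
Level of each of the 11 probes on the 8 arrays, as log2 signal minus the array's 75th percentile (vertical axes differ between panels in position and span). Circles are replicate 1, squares replicate 2, lines the mean of 2 arrays, and the open circle is control replicate 1. Lbp is high on the 4 arrays with HF, Cd14 is high on the 4 arrays with LPS, and Tlr4 on control replicate 1 stands at 2.34 against 0.20 to 0.80 on the other 7.

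LPS alone raised 1 of the 10 genes, Cd14, and lowered none by this test, against 11.1% of all genes passed in either direction. HF alone raised 1, Lbp, against 0.882% of all genes. In cells given LPS, adding HF raised Lbp and Traf6 and lowered Cd14, 3 of 10 against 6.25%. In cells given HF, adding LPS raised 1, Cd14, against 1.28%. The interaction, the difference between the response to LPS with HF and that without it, passed for 0 of the 10 genes in limma, against 0.0534% of all genes. At an unadjusted p under 0.05 there were 0 of the 10, where 11.6% of all genes were. At that level LPS minus control had 6 of the 10, against 29.6% of all genes, and HF minus control 4, against 19.7%. LPS+HF minus LPS had 5, against 23.9%, and LPS+HF minus HF 3, against 9.36%. With so few genes these shares describe the list and single it out from no other. The median difference of the 10 genes was 0.16 for LPS minus control, 0.06 for HF minus control, 0.16 for LPS+HF minus LPS and 0.25 for LPS+HF minus HF, where the medians of all genes lay between -0.08 and -0.07.

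The levels of the 10 genes were often separated between groups without passing. The arrays of the groups did not overlap for 9 genes between LPS and control, where 57.1% of all genes were separated, and for 8 between HF and control, where 46.1% were. They did not overlap for 8 between LPS+HF and LPS, against 73.9% of all genes, and for 9 between LPS+HF and HF, against 53.3%. Ticam2 is in all of these counts, though its signal on both control arrays and HF replicate 1 was not well above background.

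Lbp stood high on every array that had received HF. Its level was -2.51 and -2.43 on the control arrays, -2.31 and -2.93 with LPS, -0.46 and -0.57 with HF, and 0.07 and -0.22 with LPS+HF. The 4 arrays with HF lay above all 4 without it, and the LPS arrays lay on either side of the control arrays. Lbp rose by 1.96 ± 0.23 (SE, n = 2 and 2) with HF alone, 3.88-fold (limma, adjusted p = 0.0317). It rose by 2.54 ± 0.23 with HF in the presence of LPS, 5.82-fold (adjusted p = 0.0104). LPS minus control was -0.15 (adjusted p = 0.699) and LPS+HF minus HF 0.44 (95% interval -0.14 to 1.01, adjusted p = 0.714). The excess of the HF response with LPS over that without it, 0.58 ± 0.33, did not pass (adjusted p = 0.56).

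The single Lbp spot lies in row 35 of 384, among the first spot rows, so the spots around it were examined for a local difference between the arrays with and without HF. The Lbp spot was 2.25 higher, in log2 units, on the 4 arrays with HF than on the 4 without. The 218 other spots above background in a window of 31 rows by 15 columns around it had a median of -0.003, with 5th and 95th percentiles of -0.77 and 0.54, and 0 of them reached the Lbp value. In the first 48 rows as a whole the median over 3559 spots was -0.03, and over all 25433 spots it was -0.05. After spatial correction Lbp rose by 1.92 with HF alone (adjusted p = 0.00992) and by 2.57 with HF beside LPS (adjusted p = 0.00149).

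**Figure D2:**
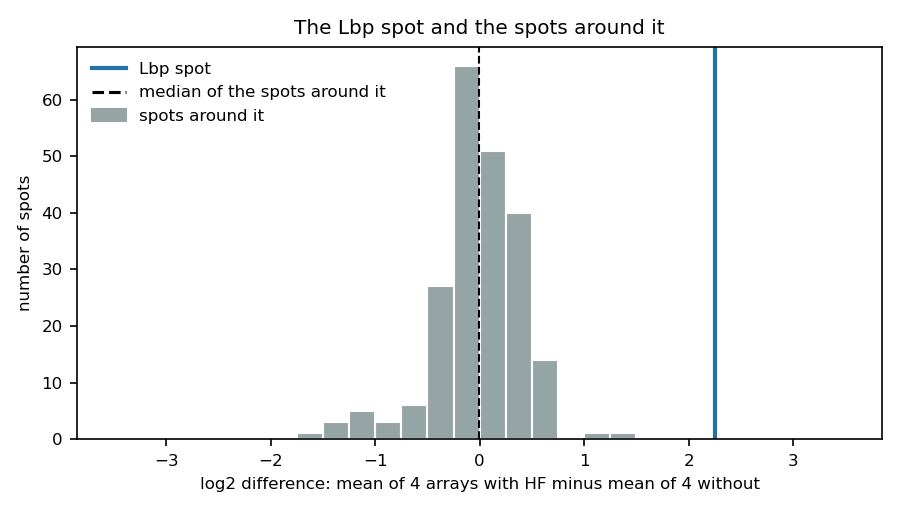
Difference between the mean log2 level of the 4 arrays with HF and that of the 4 without, for the 218 spots around the Lbp spot (bars count spots) and for the Lbp spot itself (solid line, 2.25). The dashed line is the median of the surrounding spots, -0.003, and no surrounding spot reaches the Lbp value.

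The call of Lbp with HF alone passed in 9 of 21 alternative analyses, with a difference between 1.22 and 2.34. It did not pass when any 1 of the LPS, HF or LPS+HF arrays was left out, where fewer of all genes passed too (difference 1.90 to 2.01). In limma it also failed under normexp with quantile normalization (adjusted p = 0.0881), median scaling (0.0993) and no filter on dim probes (0.104). Nor did it pass with a replicate block (0.057) or with only the arrays compared (0.298). Without both marked arrays the difference was 1.86. With HF beside LPS the rise of Lbp passed in 17 of 21, with a difference between 1.74 and 2.85. It did not pass without LPS replicate 1 (2.85), LPS replicate 2 (2.23), LPS+HF replicate 1 (2.40) or LPS+HF replicate 2 (2.68). In those fits 1 group had a single array, and few or none of all genes passed. Of 5 hepatocyte markers, Alb, Apoa1, Apob and Ttr were above background on 0 of the 8 arrays, and Serpina1a on all 8, at levels from -3.06 to -2.34. The summed level of the 5 lay between -2.40 and -1.63 in control, -2.01 and -1.86 with LPS, -2.37 and -1.75 with HF, and -2.36 and -2.13 with LPS+HF. The control arrays spanned this whole range. As 4 of the 5 markers were above background on 0 arrays, no direction is read from the sum. Its part in the values of Lbp was not tested.

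Cd14, the co-receptor that transfers LPS to TLR4 and MD-2, passed in 3 comparisons. Its level was 3.35 and 3.19 in control, 5.12 and 5.26 with LPS, 2.58 and 2.75 with HF, and 4.36 and 4.18 with LPS+HF. The 4 groups did not overlap, in the order HF, control, LPS+HF and LPS. LPS alone raised Cd14 by 1.92 ± 0.15 (SE, n = 2 and 2), 3.78-fold (limma, adjusted p = 0.00274). LPS in the presence of HF raised it by 1.60 ± 0.15, 3.04-fold (adjusted p = 0.0089). In cells given LPS, HF lowered it by a log2 difference of -0.92 ± 0.15, 1.90-fold (adjusted p = 0.0298).

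HF without LPS left Cd14 at a difference of -0.61 ± 0.15 from control, which did not pass (adjusted p = 0.142), although it did after spatial correction (-0.63, adjusted p = 0.0396). The interaction was -0.31 ± 0.22 (adjusted p = 0.612), so a smaller response to LPS in the presence of HF was not shown. The fall of Cd14 with HF beside LPS did not pass when any 1 LPS, HF or LPS+HF array was left out (-1.01 to -0.83). Fewer of all genes passed there too. It also failed to pass in limma under normexp with quantile normalization (adjusted p = 0.146) and under median scaling (0.225). Nor did it pass without a filter on dim probes (0.109) or with a replicate block (0.0622). The rise of Cd14 with LPS beside HF did not pass when any 1 HF or LPS+HF array was left out (1.52 to 1.69), where fewer of all genes passed too. In limma it also failed under normexp with quantile normalization (adjusted p = 0.138) and median scaling (0.0584). The rise with LPS alone kept its call with each single array left out. It did not pass in a limma fit to only the arrays compared (1.92, adjusted p = 0.0803). HF minus control was -0.69 with the uneven control replicate 1 as the single control. The summed level of the 12 microglial and macrophage markers was 9.44 and 9.46 in control, 9.30 and 9.36 with LPS, 9.03 and 9.03 with HF, and 9.04 and 9.22 with LPS+HF. This sum adds signals before the log, so the brightest markers weigh most. It was lower on the 4 arrays with HF than on the 4 without. Not every marker was: Csf1r and Spi1, among others, overlapped between those arrays. The part of the sum in the values of Cd14 was not tested.

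Ly96 encodes MD-2, the small protein that holds the lipid A part of LPS inside the TLR4 complex. It passed in no comparison. Its level was -0.10 and 0.57 in control, 0.87 and 0.99 with LPS, 0.75 and 0.91 with HF, and 1.37 and 0.99 with LPS+HF. Both control arrays were below the other 6, control replicate 1 the further. The difference from control was 0.70 ± 0.26 with LPS (limma, adjusted p = 0.142) and 0.60 ± 0.26 with HF (adjusted p = 0.273). The Ly96 spot on control replicate 1 lay in a part of the array dimmed more than 4-fold and was masked by the spatial correction, which left 1 control array at 0.58. LPS minus control was then 0.41 (adjusted p = 0.217) and HF minus control 0.16 (adjusted p = 0.654). Without control replicate 2 instead, LPS minus control was 1.03 and HF minus control 0.93, with the dimmed spot as the single control.

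Tlr4, the signalling receptor itself, had its highest level on control replicate 1. It stood at 2.34 and 0.80 in control, 0.20 and 0.27 with LPS, 0.51 and 0.50 with HF, and 0.37 and 0.23 with LPS+HF. The other 7 arrays kept an order in which control replicate 2 was highest, the HF arrays next, and the 4 arrays with LPS lowest. LPS minus control was -1.33 ± 0.46 and did not pass (limma, adjusted p = 0.123), nor did HF minus control, -1.06 ± 0.46 (adjusted p = 0.271).

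Tlr4 was printed in 2 spots far apart on the array, and the spots of control replicate 1 differed. The scanner's processed signal there was 3767 in one and 412 in the other, but 642 and 534 before the scanner software's correction for trends across the array. On control replicate 2 the processed signals were 442 and 468. After spatial correction control replicate 1 stood at 1.07 and control replicate 2 at 0.77, and LPS minus control was -0.65, which passed (adjusted p = 0.0131). Without control replicate 1 it was -0.56, and from the signal before trend correction -0.69 (limma, adjusted p = 0.0188). Without control replicate 2 it was -2.10, HF minus control was -1.83 and the interaction 1.90, with the array of the high value as the single control. LPS+HF minus LPS was 0.06 ± 0.46 (95% interval -1.07 to 1.19), with an error that is shared over the 4 groups.

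Myd88, the adaptor used by most Toll-like receptors, varied least of the 10 genes, by 0.46 between its lowest and highest group mean. Its level was 2.92 and 2.76 in control, 2.67 and 2.64 with LPS, 3.04 and 3.20 with HF, and 2.91 and 3.03 with LPS+HF. The LPS arrays were the lowest 2 of the 8. Of the arrays with HF, LPS+HF replicate 1 lay just below the uneven control replicate 1 and the rest above it. It passed in no comparison and under none of the 21 alternatives. LPS minus control was -0.18 (95% interval -0.53 to 0.17, limma adjusted p = 0.413), HF minus control 0.28 (-0.07 to 0.63, adjusted p = 0.316) and LPS+HF minus LPS 0.32 (-0.03 to 0.67, adjusted p = 0.249).

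The Myd88 probe is repeated in 10 spots, which shows the error within an array. On control replicate 1 the processed signal of the 8 spots kept ran from 1046 to 4814, a CV of 57.7%, and 2 further spots were marked as outliers by the scanner software. Before trend correction the same 8 spots ran from 1862 to 2264, a CV of 6.33%. The 2 marked spots, left out of that CV, stood at 439 and 1191 before trend correction. On control replicate 2 the spots at those positions stood at 1961 and 1802, so the signal before correction was uneven there too. On the other 7 arrays the 10 spots had a CV of 2.23% to 6.15% after trend correction. The mean over spots on control replicate 1, 2.92, moved to 2.65 after spatial correction, where control replicate 2 stood at 2.75.

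**Figure D3:**
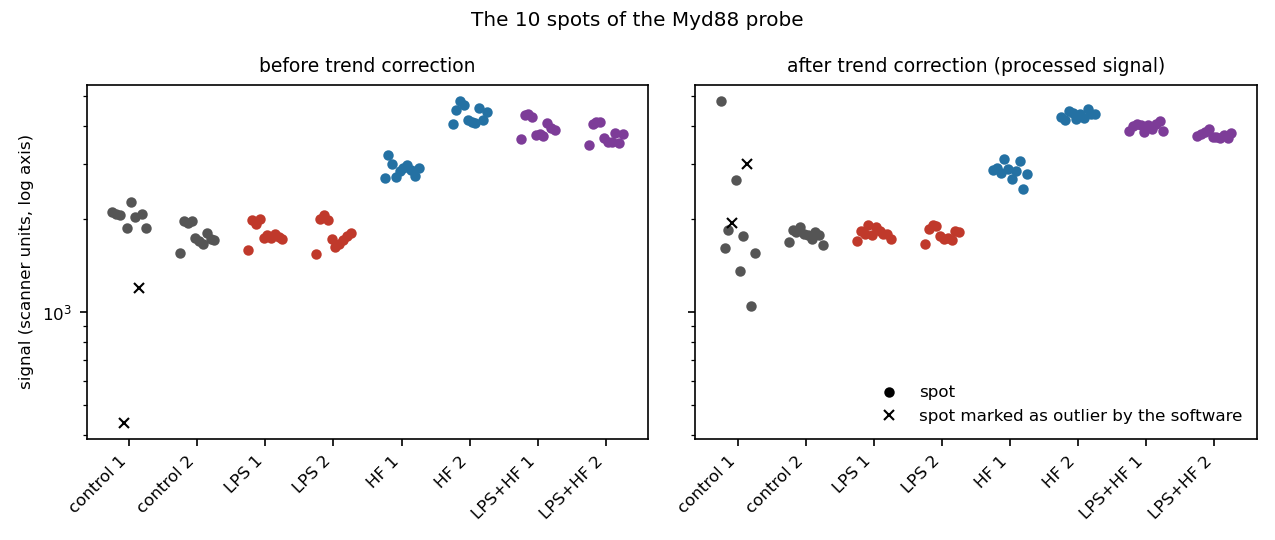
Signal of each of the 10 Myd88 spots on the 8 arrays, in scanner units on a log axis, before (left) and after (right) the scanner software's trend correction. Spots marked as outliers by the software are crosses; on control replicate 1 the 8 other spots span 1862 to 2264 before and 1046 to 4814 after the correction. Signals are not yet scaled between arrays, so the higher signals with HF go with the higher 75th percentile of those arrays.

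Tirap, the adaptor that brings MyD88 to TLR4 at the plasma membrane, stood at 0.42 and 0.63 in control, 0.25 and 0.28 with LPS, 0.87 and 0.86 with HF, and 0.75 and 0.73 with LPS+HF. The LPS arrays were lowest and the 4 arrays with HF highest, with no overlap between groups. LPS+HF minus LPS was 0.48 ± 0.14, which did not pass (limma, adjusted p = 0.0995) but did after spatial correction (0.54, adjusted p = 0.0142). HF minus control was 0.34 ± 0.14 and did not pass (adjusted p = 0.245). It was 0.45 with the uneven control replicate 1 as the single control. LPS minus control was -0.26 ± 0.14 (adjusted p = 0.252) and passed, narrowly, after spatial correction (-0.36, adjusted p = 0.04998) and from the signal before trend correction (-0.41, adjusted p = 0.048).

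Ticam1 encodes TRIF, the adaptor of the endosomal arm. It stood at 1.23 and 0.96 in control, 1.59 and 1.72 with LPS, 1.01 and 0.85 with HF, and 1.53 and 1.27 with LPS+HF. All 4 arrays with LPS were above all 4 without it. The difference was 0.56 ± 0.17 for LPS minus control (limma, adjusted p = 0.096) and 0.47 ± 0.17 for LPS+HF minus HF (adjusted p = 0.465), and neither passed. The spot on control replicate 1 was masked in the spatial correction, after which LPS minus control was 0.67 (adjusted p = 0.0245) and LPS+HF minus HF 0.64 (adjusted p = 0.0484). Without control replicate 1, LPS minus control was 0.70.

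Ticam2 encodes TRAM, which links TRIF to TLR4, and was not well above background on both control arrays and HF replicate 1. Its measured level was -3.45 and -4.12 in control, -3.18 and -3.20 with LPS, -4.60 and -4.15 with HF, and -3.42 and -3.29 with LPS+HF. The 4 arrays with LPS were above the 4 without it, by little in the case of control replicate 1. LPS minus control was 0.60 ± 0.26 and did not pass (limma, adjusted p = 0.195), and with 1 array left out it ran from 0.26 to 0.93. The fitted difference is 1.51-fold (95% interval -0.05 to 1.24 in log2). As neither control array was well above background, it is approximate. It is no lower bound, because the measured control signals were above the lowest signal called present. After spatial correction control replicate 1 stood at -4.16 and LPS minus control at 1.02, which passed (limma, adjusted p = 0.00795). That difference also passed under quantile normalization (1.03, adjusted p = 0.0409). Without control replicate 1 it was 0.93. The size of HF minus control is not read for Ticam2, here or where it is drawn or listed, since 1 of the 4 arrays was above background. LPS+HF minus HF was 1.02 ± 0.26 (limma, adjusted p = 0.217), with 1 of the 2 HF arrays above background. It passed after spatial correction (1.11, adjusted p = 0.0206).

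Irak2, a kinase-like member of the IRAK family that keeps the MyD88 signal going, had 2 probes on the same transcript, and they differed. The brighter one, used in the counts, stood at 4.07 and 4.47 in control, 4.80 and 4.68 with LPS, 4.09 and 3.94 with HF, and 4.13 and 4.21 with LPS+HF. The second stood at -1.64 and -2.22 in control, -0.53 and -0.41 with LPS, -2.23 and -2.19 with HF, and -1.35 and -1.38 with LPS+HF. On both probes the LPS arrays were above all others, but the second probe spread the groups further.

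The brighter Irak2 probe passed in no comparison. Its differences were 0.47 ± 0.18 for LPS minus control (limma, adjusted p = 0.145), -0.57 ± 0.18 for LPS+HF minus LPS (adjusted p = 0.124) and 0.16 ± 0.18 for LPS+HF minus HF (adjusted p = 0.933). After spatial correction LPS minus control was 0.32 (adjusted p = 0.0461) and LPS+HF minus LPS -0.46 (adjusted p = 0.015), and both passed. Without control replicate 1 or 2, LPS+HF minus LPS stayed at -0.57. LPS minus control was 0.67 with the uneven control replicate 1 as the single control.

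The second Irak2 probe rose by 1.46 with LPS, 2.75-fold (limma, adjusted p = 0.0128). On that probe LPS+HF minus LPS was -0.89 (adjusted p = 0.0633) and LPS+HF minus HF 0.84 (adjusted p = 0.193). Both probes thus had the same sign in each of these comparisons, and the size differed by probe. With the mean of both probes, Irak2 passed for LPS minus control (0.97, adjusted p = 0.00842) and for LPS+HF minus LPS (-0.73, adjusted p = 0.028).

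Traf6, the ubiquitin ligase that activates TAK1 downstream of the IRAKs, stood at -0.86 and -0.56 in control, -1.19 and -1.07 with LPS, -0.27 and -0.15 with HF, and -0.25 and -0.35 with LPS+HF. As with Tirap, the LPS arrays were lowest and the 4 arrays with HF highest. Traf6 rose by 0.83 ± 0.16 (SE, n = 2 and 2) with HF in cells given LPS, 1.78-fold (limma, adjusted p = 0.0407). HF minus control was 0.50 ± 0.16 (adjusted p = 0.191) and LPS minus control -0.42 ± 0.16 (adjusted p = 0.147), and neither passed. LPS minus control passed after spatial correction (-0.51, limma adjusted p = 0.00937) and was -0.57 without control replicate 1. With the uneven control replicate 1 as the single control, HF minus control was 0.65. The rise with HF beside LPS passed in 11 of 21 alternatives with a difference between 0.73 and 0.98. It did not pass when any 1 LPS, HF or LPS+HF array was left out (0.77 to 0.89), where fewer of all genes passed too. In limma it also failed under normexp with quantile normalization (adjusted p = 0.189), median scaling (0.236), no filter on dim probes (0.132) and a replicate block (0.0681). After spatial correction it was 0.82 (adjusted p = 0.00263).

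**Figure D4:**
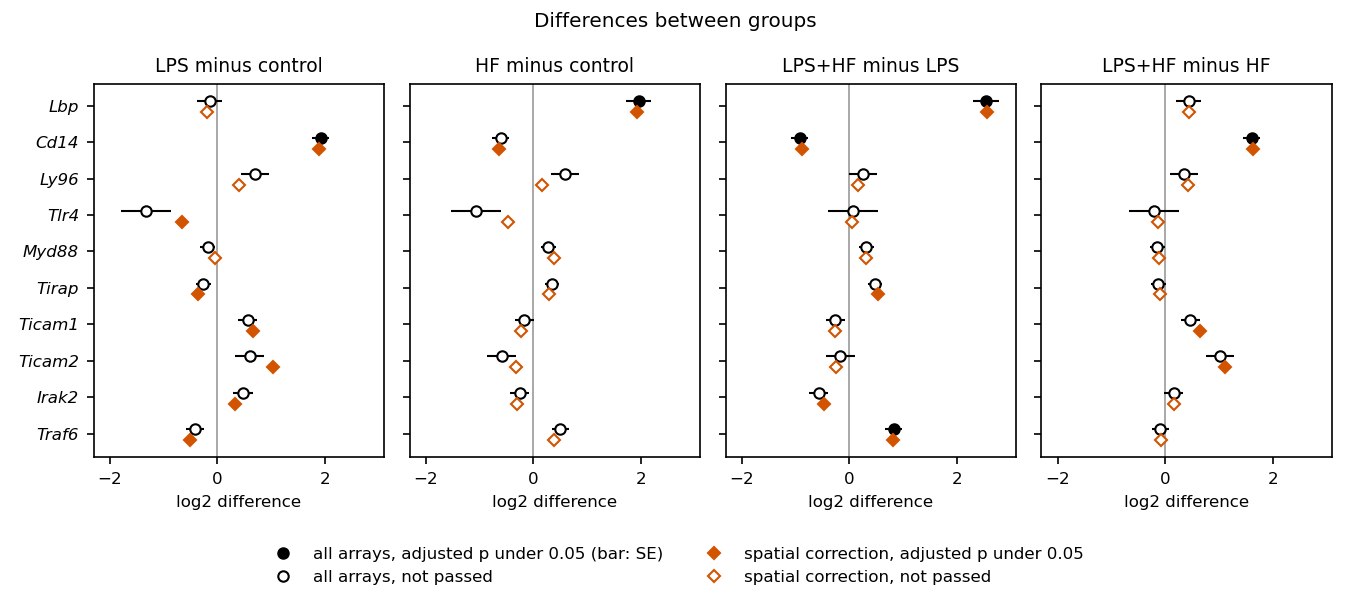
Difference between group means (log2) of the 10 genes in 4 comparisons. Circles are the fit to all 8 arrays with SE bars, diamonds the same after spatial correction, and filled symbols passed an adjusted p under 0.05. Lbp in both comparisons with HF and Cd14 in both with LPS lie farthest from 0 among the filled circles, and the values of Tlr4 against control move most between circle and diamond.

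The response to each treatment could be compared with and without the other treatment, since LPS minus control and LPS+HF minus HF share no array, nor do HF minus control and LPS+HF minus LPS. For LPS, 9 of the 10 genes had the same sign in both, Lbp being the exception with -0.15 and 0.44, where 68.3% of all genes had the same sign. For HF, 9 of 10 had the same sign, Tlr4 being the exception with -1.06 and 0.06, where 65.2% of all genes did. Most of these differences did not pass, so their signs are a description. Ticam2 is among the 9 for HF, though most of its control and HF arrays were not well above background. Comparisons that share arrays are not set against each other here: LPS and HF were both compared with the same 2 control arrays.

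**Figure D5:**
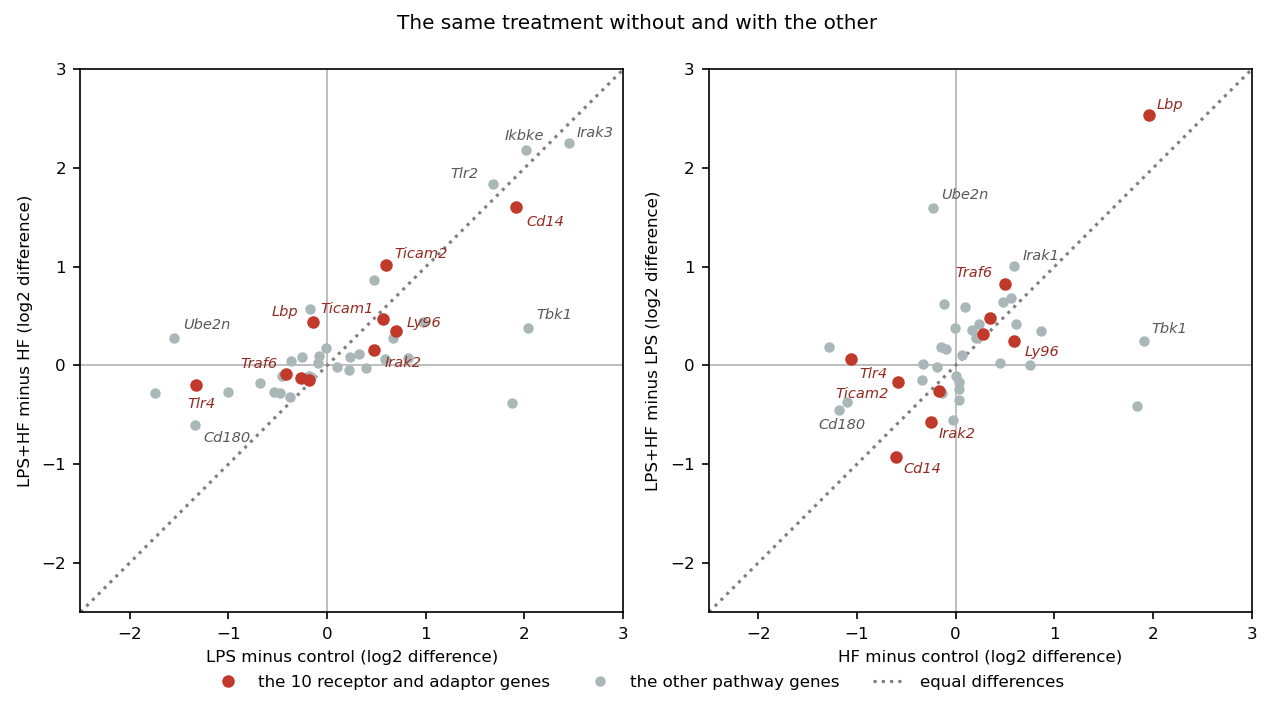
Left, the log2 difference made by LPS in cells without HF (horizontal) and with HF (vertical). Right, the difference made by HF in cells without LPS (horizontal) and with LPS (vertical). Dark points are the 10 genes and pale points 32 other genes of the pathway, some named, and the dotted line marks equal differences. Cd14 lies at the upper right of the left plot and Lbp at the upper right of the right plot, and Ube2n lies apart in both.

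A list of 32 further genes of the pathway gave the surroundings of the chain, all of them on the array and tested. With LPS alone 4 rose, 2 fell and 26 did not pass, where 11.1% of all genes passed, and the median difference was -0.05. The 4 were Irak3, a kinase-like brake on MyD88 signalling (2.45, limma adjusted p = 0.00567), Ikbke, a kinase of the interferon arm (2.01, adjusted p = 0.00355), Tlr2, the receptor for bacterial lipopeptides (1.68, adjusted p = 0.00324), and Peli1, a ubiquitin ligase (0.97, adjusted p = 0.0131). Ube2n, the ubiquitin-conjugating enzyme that works with TRAF6, fell (-1.55, adjusted p = 0.00598), as did Cd180, a TLR4-related surface protein (-1.34, adjusted p = 0.0376). From the signal before trend correction the Cd180 difference was -0.48 and no longer passed (adjusted p = 0.275), and under median scaling it was -0.99 (adjusted p = 0.0584).

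With HF alone 0 of the 32 genes passed in limma, with a median difference of 0.03. At an unadjusted p under 0.05 there were 7 of the 32, where 19.7% of all genes were. With HF in cells given LPS 2 rose, Ube2n (1.60, adjusted p = 0.0115) and Irak1, the kinase between MyD88 and TRAF6 (1.00, adjusted p = 0.0493), 0 fell and 30 did not pass, where 6.25% of all genes passed. Irak1 was 0.94 under quantile normalization and did not pass (adjusted p = 0.0547). With LPS in cells given HF 3 rose, Irak3 (2.26, adjusted p = 0.0174), Ikbke (2.18, adjusted p = 0.00518) and Tlr2 (1.84, adjusted p = 0.00448), 0 fell and 29 did not pass, where 1.28% of all genes passed. Irak3 did not pass there under quantile normalization (2.24, adjusted p = 0.0535).

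Ube2n was low on the LPS arrays alone. Its level was 1.09 and 1.42 in control, -0.26 and -0.32 with LPS, 0.91 and 1.14 with HF, and 1.31 and 1.31 with LPS+HF. The LPS arrays were below the other 6. Of these, control overlapped with both HF and LPS+HF, while the LPS+HF arrays lay above the HF arrays. The interaction passed for 0 of the 32 genes in limma, with 3 at an unadjusted p under 0.05, where 11.6% of all genes were. The interaction passed for Ube2n after spatial correction (1.94, limma adjusted p = 0.00846), where it passed for 847 of all genes. From the signal before trend correction it also passed (2.08, adjusted p = 0.0269), with 118 of all genes. The main fit had 12 of all genes. Normexp with quantile normalization, median scaling, no filter on dim probes, a replicate block and a trended robust variance each had 0, so Ube2n did not pass there. The LPS arrays were also lowest for Traf6 and Tirap, where LPS minus control did not pass (limma, adjusted p = 0.147 and 0.252). A link between these genes was not tested.

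For the 3 genes with the widest range of group means, the named genes most like each in pattern were found by Pearson's r over the 8 arrays among 13787 genes. These values describe 8 arrays in 4 groups and carry no test. The pattern of Cd14 was closest to Nos2, the inducible nitric oxide synthase (r = 0.998), Ccl5, a chemokine (0.998), and Spic, a transcription factor of macrophages (0.996). Nos2 stood at 1.91 and 1.93 in control, 4.67 and 4.88 with LPS, 0.73 and 0.96 with HF, and 3.59 and 3.17 with LPS+HF, in the same order of groups as Cd14. The pattern of Lbp was closest to Ctc1 (0.986), Fstl3 (0.984) and Cers2 (0.983). Cers2, a ceramide synthase, went from 2.72 to 2.88 on the 4 arrays without HF and from 3.23 to 3.39 on the 4 with it, a narrower span than that of Lbp. The pattern of Tlr4 was closest to Eif3m (0.998) and Cap1 (0.996), which share its high value on control replicate 1: Cap1 stood at 6.97 there and between 3.78 and 4.74 on the other arrays. Among the 10 genes themselves Tirap and Traf6 ran most closely together (r = 0.988), a pair picked after the values were seen.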

How the data were processed

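Messenger RNA of BV-2 cells was measured on 8 single-colour Agilent arrays. Per the file headers, the intensity of each spot was made by Agilent Feature Extraction (version 11.5.1.1), which subtracted background and corrected trends across each array. The authors' deposited series matrix holds log2 values of the same signals. Recomputing them showed a shift to each array's 75th percentile and centring on each probe's median (r of 0.99996 or more per array, with column medians of -0.11 to 0.19).

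Here the processed intensities, without control and outlier spots, were averaged per probe, scaled to the 75th percentile and taken to log2. Symbols came from RefSeq transcripts for 28026 probes (50.3%). Probes were kept where both arrays of 1 or more groups were well above background, and the probe with the highest mean stood for a gene. Group means were fitted with limma (3.58.1, R 4.3.3) over all 8 arrays, with 4 residual degrees of freedom and 2.04 prior ones. Simulated data with 200 changed genes were used to check the fit. Where a spot was masked or an array left out, its group's remaining array was taken to vary as the other groups do. Python 3.11.15, numpy 2.4.6, pandas 2.3.3 and matplotlib 3.10.9 prepared and drew the data.

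The text names all 10 genes with every probe, the listed pathway genes that passed (up to 4 per comparison and direction), and the 3 genes most like each of the 3 with the widest range, of which 1 is not reported here. The genes and lists were chosen with earlier results of these data known. Among the alternatives, the spatial correction and the removal of both arrays out of the scanner's quality range were also chosen with those results known, and the signal before trend correction was added after seeing the data. The others were normexp (offset 50, on median signals, since means were not used here) with quantile normalization, quantile or median scaling, the authors' matrix, 2 other filters, the mean over probes, a trended robust variance, a replicate block, a fit to only the 4 arrays compared, and the omission of each array in turn.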

Additional observations from a re-analysis of the deposited data

How the results depend on the processing

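Of 1040 recomputed differences of the 10 genes, 921 kept their sign and their side of the threshold. Another 50 passed where they had not, 43 no longer passed and 26 changed sign, none of which passed. Only a difference that passed in the main fit could stop passing, so the 43 all belong to those few. Most of the 1040 had not passed at first, so the 921 is no measure of how stable the calls were. The counts of genes passed were 1 for LPS minus control, 1 for HF minus control, 3 for LPS+HF minus LPS and 1 for LPS+HF minus HF. Of all genes, 2502, 198, 1404 and 287 passed in that order. After spatial correction 7, 2, 5 and 3 of the 10 passed, with 6661, 2452, 6788 and 1193 of all. Normexp with quantile normalization gave 1, 0, 1 and 0, with 1009, 8, 236 and 85 of all. Median scaling gave 1, 0, 1 and 0, with 834, 37, 200 and 155 of all. Without a filter on dim probes 1, 0, 1 and 1 passed, with 822, 13, 168 and 127 of all 36799. With only the arrays compared the counts were 0, 0, 5 and 1, with 67, 0, 7397 and 328 of all. Quantile normalization and the mean over probes gave 2 for LPS minus control, with 2259 and 2681 of all genes. The mean over probes gave 4 for LPS+HF minus LPS, with 1566 of all genes. From the signal before trend correction, chosen after seeing the data, the counts were 6, 1, 5 and 1. Of all genes 4562, 810, 3887 and 579 passed there. The counts also rose or fell without both marked arrays and with 1 array left out, but those fits leave 1 array in a group. The cause of these changes was not tested. The replicate numbers did not pair the arrays (correlations of replicate differences between groups from -0.09 to 0.27). A fit with the replicate block gave 1, 0, 1 and 1, with 1704, 44, 592 and 199 of all genes. In that limma fit Lbp had adjusted p = 0.057 for HF minus control, and with HF beside LPS Cd14 had 0.0622 and Traf6 0.0681.

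Signs changed under median scaling for LPS minus control of Lbp (0.20), Myd88 (0.16) and Tirap (0.086), HF minus control of Ticam1 (0.22) and Irak2 (0.13), LPS+HF minus HF of Traf6 (0.022), and the interaction of Myd88 (-0.20) and Tirap (-0.10). That scaling moved the median of all genes by 0.35, 0.39, 0.15 and 0.11 in the 4 comparisons, and quantile normalization by 0.12 and 0.11 in the first and second, where Lbp for LPS minus control was 0.055. Under normexp, HF minus control was 0.58 for Ticam1 and 0.14 for Ticam2, and the interaction of Ticam2 -0.14. From the signal before trend correction, Ticam2 was 0.15 for HF minus control and -0.30 for the interaction, and Ly96 0.15 for the interaction. After spatial correction the interaction was 0.013 for Ly96 and -0.071 for Myd88, and without both marked arrays -0.12 for Myd88 and -0.14 for Ticam2. With 1 array left out, Lbp for LPS minus control ran from -0.46 to 0.17, Tlr4 for LPS+HF minus LPS from -0.0094 to 0.14, and the interaction from -0.045 to 0.12 for Myd88 and from -0.23 to 0.039 for Ticam1.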
